A study of Mus musculus with 8 samples.

Results

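The Myc-Max network is a set of transcription factors that bind DNA as pairs, and 10 of its genes were followed here: Myc, Mycn, Mycl, Max, Mxd1, Mxd3, Mxd4, Mnt, Mga and Mlx. They were chosen by symbol, as 10 of 18194 genes on the array, and 27 of its 45101 probe sets carried 1 of these symbols. The set was picked because a Mycn probe set was far higher in NIH3T3 cultures carrying PGC7 than in the NIH3T3 control, so the values of these genes in that comparison are a description and carry no test. Of the 27 probe sets, 19 passed a filter on low signal and were tested in the other comparisons. The 8 that did not pass were 1 of the 3 of Mycn, all 3 of Mycl, and 1 each of Mxd1 and Mnt with 2 of Mga.

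Myc, N-Myc (Mycn) and L-Myc (Mycl) each pair with Max and bind the E-box CACGTG, where they raise transcription of genes for growth, ribosome production and metabolism. Mxd1, Mxd3, Mxd4, Mnt and Mga also pair with Max and act mainly as repressors, while Mlx is a Max-like protein that pairs with the glucose-responsive Mlxip and Mlxipl and with some of the Mxd proteins and Mnt. Myc is expressed in most dividing cells, and Mycn mainly in embryonic, neural and other progenitor cells. Mycn is amplified in many neuroblastomas.

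RNA of 2 mouse cell lines was hybridised to Affymetrix expression arrays, 1 array per sample. B16F10 is a melanoma line and NIH3T3 an embryonic fibroblast line. The PGC7 cultures had been infected with virus to force expression of PGC7 (gene Dppa3, also Stella), which oocytes and germ cells make and which guards DNA methylation marks after fertilisation. The groups were B16F10 PGC7 (n = 3, clones 1 to 3), B16F10 control (n = 1), NIH3T3 PGC7 (n = 3, clones 1 and 2 and an uncloned mixture) and NIH3T3 control (n = 1). A clone is a line grown from a single infected cell, so each carries its own history beside the virus. The uncloned culture is titled pre cloning, and the titles do not say whether NIH3T3 clones 1 and 2 were drawn from it. The 3 NIH3T3 PGC7 arrays may therefore not come from separate infections. The labels attach the same infection protocol, overnight with polybrene, to all 8 samples, and do not say which virus the controls met. The genotype label names PGC8 and pre-cloned cells for all 6 PGC7 samples, clones included, so the groups follow the titles. With 1 control array per line, the spread of the controls was not measured, and the tests took it to equal that of the PGC7 arrays.

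Signals below are the deposited signals scaled so that each array has a 2% trimmed mean of 500, in arbitrary units, and log2 differences are on the scale log2(signal + 9), which understates the change of weak probe sets. Between PGC7 and control arrays of 1 line the correlation of log2 values over all tested probe sets, those past the low-signal filter, was 0.97 to 0.977 in B16F10 and 0.912 to 0.92 in NIH3T3. Melanocyte markers marked B16F10 (10 to 11 of 12 above the median of all signals, 49.33, against 1 to 3 in NIH3T3) and fibroblast markers marked NIH3T3 (5 to 6 of 13 in B16F10, against 12 to 13 in NIH3T3). Some summed marker signals also moved with PGC7. In NIH3T3 the fibroblast sum was 165500, 172400 and 150100 in clone 1, clone 2 and the uncloned culture, against 206600 in the control. Col1a1 changed most (367.4, 503.4 and 702.5, against 23290), and Col1a2 was also lower (23430, 23910 and 22300, against 36060). Dcn was higher (16480, 20070 and 18720, against 13830), and Col3a1 was not lower (29270, 31940 and 27100, against 27080). The sum of 7 macrophage markers was 1045, 1123 and 892.8, against 551.8 (4 to 5 above the median in each, with Aif1 at 3.43 to 7.04 in all 4 arrays). Cd14 changed most (520.4, 578.1 and 470.7, against 130.7), while Lyz2 was lower (31.74, 38.56 and 34.97, against 114.3). That of 7 neuron markers was 360.8, 280.0 and 345.7, against 159.5 (at most 2 above the median, with Tubb3 at 1.55 to 9.08). Nearly all of the neuron difference was Snap25 (227.7, 165.4 and 245.8, against 36.15), while Stmn2 and Map2 were lower in every PGC7 array. In B16F10 the melanocyte sum was 129200, 134800 and 149100 in the 3 clones, against 112900 in the control. The part of these shifts in the results below was not tested. Dppa3 itself was weak: its probe set read 70.01, 117.3 and 70.99 in B16F10 PGC7 clones 1, 2 and 3, against 23.51 in the B16F10 control, and 29.7, 55.39 and 100.7 in NIH3T3 PGC7 clone 1, clone 2 and the uncloned culture, against 69.82 in the NIH3T3 control. Neither difference passed the test (log2 1.51 ± 0.58 SE, adjusted p = 0.27 in B16F10, and -0.28 ± 0.58 SE, adjusted p = 0.802 in NIH3T3, limma with Benjamini-Hochberg adjustment), and whether the probe set can read the viral transcript was not tested. In bulk RNA, fewer cells expressing a gene and less of its RNA per cell cannot be told apart.

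The promoters of Mycn, Mxd4 and Max are shown because Mycn gave the largest difference of the network, Mxd4 gave its only differences past the test in B16F10, and Max is the partner of nearly all the others. Each window runs from 250 bases before to 50 after the RefSeq start site in GRCm38.p6 (on the minus strand, chr12:12941787-12942086 for Mycn, chr5:34187661-34187960 for Mxd4 and chr12:76962199-76962498 for Max), printed 5′ to 3′ with motif matches in capitals. The motifs searched, on both strands and with no overlap between them, were the E-box CACGTG and the E2F-type motif TTTGGCGC.
Mycn: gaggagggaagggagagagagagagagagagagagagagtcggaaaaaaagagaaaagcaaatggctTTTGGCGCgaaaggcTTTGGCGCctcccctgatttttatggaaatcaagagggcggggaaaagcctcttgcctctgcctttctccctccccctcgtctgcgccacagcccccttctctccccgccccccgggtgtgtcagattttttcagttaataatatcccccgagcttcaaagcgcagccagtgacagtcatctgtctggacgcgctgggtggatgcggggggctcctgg
Mxd4: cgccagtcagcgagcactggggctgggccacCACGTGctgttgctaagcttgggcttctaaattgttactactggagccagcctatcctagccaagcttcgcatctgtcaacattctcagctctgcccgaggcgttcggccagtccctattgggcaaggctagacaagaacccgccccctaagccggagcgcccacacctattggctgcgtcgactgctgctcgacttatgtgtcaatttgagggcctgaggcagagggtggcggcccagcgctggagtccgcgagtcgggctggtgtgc
Max: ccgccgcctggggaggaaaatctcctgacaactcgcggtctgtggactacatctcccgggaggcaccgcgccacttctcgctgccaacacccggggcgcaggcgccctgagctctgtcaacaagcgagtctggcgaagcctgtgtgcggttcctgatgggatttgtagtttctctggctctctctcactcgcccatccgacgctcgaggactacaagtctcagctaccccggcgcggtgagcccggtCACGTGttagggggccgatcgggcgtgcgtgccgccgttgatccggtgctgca
The Mycn window held TTTGGCGC at 2 places, with first bases 183 and 168 before the start site, and no CACGTG, while the Mxd4 and Max windows each held 1 CACGTG. Of the 9 members with an entry, Max, Mxd4, Mnt and Mlx held CACGTG (44.4%, 4 of 9), against 7.15% of all 32851 promoters of the same length (2349), and TTTGGCGC stood in 11.1% of the members, 1 of 9, against 0.514% of all promoters (169). A match describes letters in a window and no site that was measured.

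Mycn gave the largest difference of the network in NIH3T3, on 1 of its 3 probe sets, and the others did not follow it. Probe set 1425923_at read 15480, 15840 and 12740 in NIH3T3 PGC7 clone 1, clone 2 and the uncloned culture, against 64.04 in the NIH3T3 control. All 3 NIH3T3 PGC7 arrays lay far above the control, at a mean of 14690 ± 1695 (SD, n = 3). The log2(signal + 9) difference of 7.65 is a description of the value that chose the set. The control signal lies near the median of all signals and was not shown to be above background, so no fold is given.

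The other Mycn probe sets did not show that rise. Probe set 1425922_a_at read 120.6, 56.04 and 20.53 in NIH3T3 PGC7 clone 1, clone 2 and the uncloned culture, against 102.1 in the NIH3T3 control, and the groups overlapped (log2 -0.82). Probe set 1417155_at read 6.09, 19.73 and 5.85, against 299.1 in the NIH3T3 control, so all 3 PGC7 arrays were lower and lay under the median of all signals. It did not pass the low-signal filter, and no fold is given. The platform annotation ties 1425923_at and 1425922_a_at to the same GenBank record and 1417155_at to another. Over the 8 arrays, which share their labels and scaling, Pearson's r of 1425923_at was 0.5 with 1425922_a_at and -0.04 with 1417155_at. A call of "Mycn higher" therefore rests on 1 of 3 probe sets, and which transcripts the 3 detect was not tested. Mycn lies at chr12:12936093-12941836 in GRCm38.p6.

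In B16F10 every Mycn signal lay under the median of all signals. Probe set 1425923_at read 29.84, 40.04 and 47.44 in the 3 PGC7 clones, against 19.08 in the B16F10 control. Probe set 1425922_a_at read 1.64, 12.35 and 2.06, against 34.22. Both passed the low-signal filter only through the NIH3T3 arrays, so no test of them in B16F10 is given. Probe set 1417155_at stayed between 1.47 and 6.79 in all 4 arrays.

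**Figure D1:**
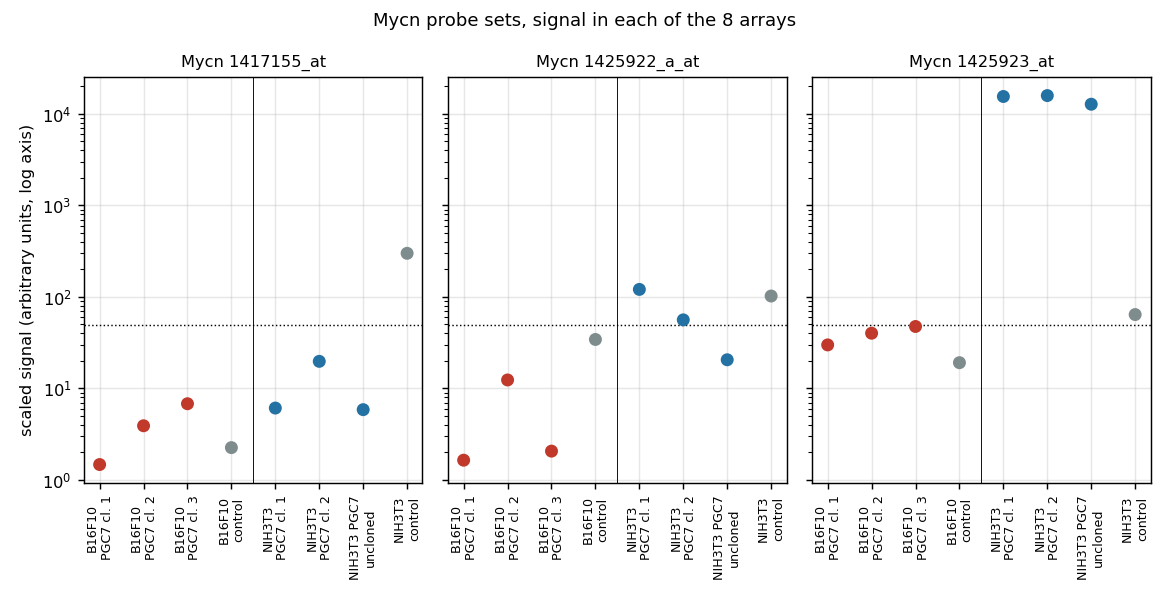
Signals of the 3 Mycn probe sets in each of the 8 arrays, in arbitrary units on a log axis, with PGC7 arrays in red (B16F10) or blue (NIH3T3), controls in grey, and a dotted line at the median of all signals (49.33). In the NIH3T3 PGC7 arrays 1425923_at stands at 12740 to 15840, while 1417155_at is highest in the NIH3T3 control.

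The genes tested near Mycn on chromosome 12 did not pass in either line. Vsnl1, 1500 kb away, had no probe set past the low-signal filter (at most 48.64 in any array) and was not tested. Ddx1, an RNA helicase often co-amplified with human MYCN, lies 277 kb away, and its probe set read 4573, 4345 and 4994 in NIH3T3 PGC7 clone 1, clone 2 and the uncloned culture, against 4945 in the NIH3T3 control (log2 -0.09, adjusted p = 0.641, limma). Nbas, 327 kb away, read 724.3, 640.0 and 700.1, against 841.5 in the control (log2 -0.29, adjusted p = 0.222, limma). Cyria, 555 kb away, was at 2.73, 11.58 and 11.12, against 2.29 in the control, all far under the median of all signals. Pvt1, which neighbours Myc on chromosome 15, read 830.1, 741.9 and 1100, against 1121 in the control (log2 -0.35, adjusted p = 0.384, limma). Cyria read 536.4, 439.2 and 562.9 in B16F10 PGC7, against 326.4 in the B16F10 control. Of the 6 neighbours listed, 5 were measured and 4 tested, with 0 past the threshold by each gene's brightest probe set (0 also at an unadjusted p under 0.05), against 15.2% of all genes in NIH3T3 and 1.56% in B16F10. These counts leave out the weaker probe sets. Cyria passed the low-signal filter only through the B16F10 arrays, so nothing is read from its place in the NIH3T3 count.

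By Pearson's r of log2 values over the 8 arrays, the tested probe sets of other genes most like 1425923_at were those of Kcnq1 (r = 0.998), Rasa2 (0.996), Ccny (0.995), Fut8 (0.995), Upp1 (0.994) and 4930523C07Rik (0.994). Upp1, a uridine phosphorylase, read 5808, 5463 and 8451 in NIH3T3 PGC7 clone 1, clone 2 and the uncloned culture, against 62.67 in the NIH3T3 control, and 21.25 to 25.47 in the 4 B16F10 arrays. Kcnq1, a potassium channel subunit, read 499.0, 585.1 and 484.9, against 14.18. Each of the 6 was high in the 3 NIH3T3 PGC7 arrays and lower in the other 5. These genes were chosen for their likeness, and nothing was tested on them.

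Myc, the most widely expressed gene of the family, did not pass the test in B16F10 and overlapped its control in NIH3T3. It read 2285, 2563 and 1937 in B16F10 PGC7, against 3063 in the B16F10 control, so all 3 clones lay lower (log2 -0.45 ± 0.36 SE, adjusted p = 0.625, limma). In NIH3T3, Myc read 1576, 1254 and 2759 in clone 1, clone 2 and the uncloned culture, against 1705 in the NIH3T3 control, and the groups overlapped (log2 0.05). All 3 Mycl probe sets were weak: in the B16F10 arrays they read at most 31.36 and in NIH3T3 PGC7 at most 39.82, under the median of all signals. Mycl 1422088_at read 1.22, 4.24 and 2.96 in NIH3T3 PGC7, against 30.81 in the NIH3T3 control, while 1422087_at read 18.55, 27.46 and 39.82, against 7.93. No direction is read from signals this weak.

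Max, the shared partner, read 853.1, 784.1 and 992.0 in B16F10 PGC7, against 903.2 in the B16F10 control (log2 -0.05 ± 0.25 SE, adjusted p = 0.955, limma). In NIH3T3 it read 435.8, 304.0 and 296.8 in clone 1, clone 2 and the uncloned culture, against 419.2 in the control (log2 -0.29). In both lines the PGC7 arrays overlapped the control.

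Of the 19 tested probe sets of the network, 2 rose and 0 fell in B16F10 PGC7, where 1.19% of all tested probe sets were called (0.923% higher, 0.265% lower), and 5 of the 19 had an unadjusted p under 0.05. Without the 2 Mycn probe sets, which were under the median of all signals in all 4 B16F10 arrays, these counts were 2 and 4 of 17. No share of all probe sets was taken at an unadjusted p under 0.05, so nothing is read from the unadjusted counts. Both probe sets that rose were of Mxd4, a repressor of the Mxd family that is expressed in resting and differentiating cells. Probe set 1434379_at read 218.6, 240.2 and 222.6 in B16F10 PGC7 clones 1, 2 and 3, against 40.98 in the B16F10 control (log2 2.24 ± 0.23 SE, adjusted p = 0.00581, limma). That control signal lies under the median of all signals and was not shown to be above background, so no fold is given. Probe set 1434378_a_at read 609.4, 748.9 and 599.8, against 207.5, a 3.15-fold difference (log2 1.60 ± 0.21 SE, adjusted p = 0.014, limma). In each the 3 clones lay well above the control and close to each other. The second call was lost without clone 1 (adjusted p = 0.0592) and without clone 3 (0.0564). Probe set 1422574_at read 198.1, 197.8 and 219.4, against 96.48 (log2 1.02 ± 0.30 SE, adjusted p = 0.162, limma), and 1422575_at, at 43.46, 32.18 and 83.04, against 39.88, overlapped (0.26 ± 0.56, adjusted p = 0.88). Mxd4 lies at chr5:34176580-34187710.

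In NIH3T3 the same 3 Mxd4 probe sets, those above the control in every B16F10 clone, were lower in PGC7. The other, 1422575_at, read 85.05, 65.48 and 40.7 in clone 1, clone 2 and the uncloned culture. Its NIH3T3 control read 42.12, and the groups overlapped (log2 0.46). Probe set 1434379_at read 215.4, 196.5 and 223.0 in clone 1, clone 2 and the uncloned culture, against 869.1 in the NIH3T3 control (log2 -1.99). Probe set 1434378_a_at read 599.9, 546.2 and 472.0, against 1808 (log2 -1.74), and 1422574_at read 103.7, 81.02 and 66.98, against 531.2 (log2 -2.56). On 1434379_at and 1434378_a_at the PGC7 arrays of the 2 lines overlapped, and the controls stood on either side of them, low in B16F10 and high in NIH3T3. In all, 7 of the 19 probe sets had every PGC7 array on opposite sides of the controls in the 2 lines, against 21.6% of all tested probe sets. No test was made of the difference between the lines' changes, since NIH3T3 chose the members.

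**Figure D2:**
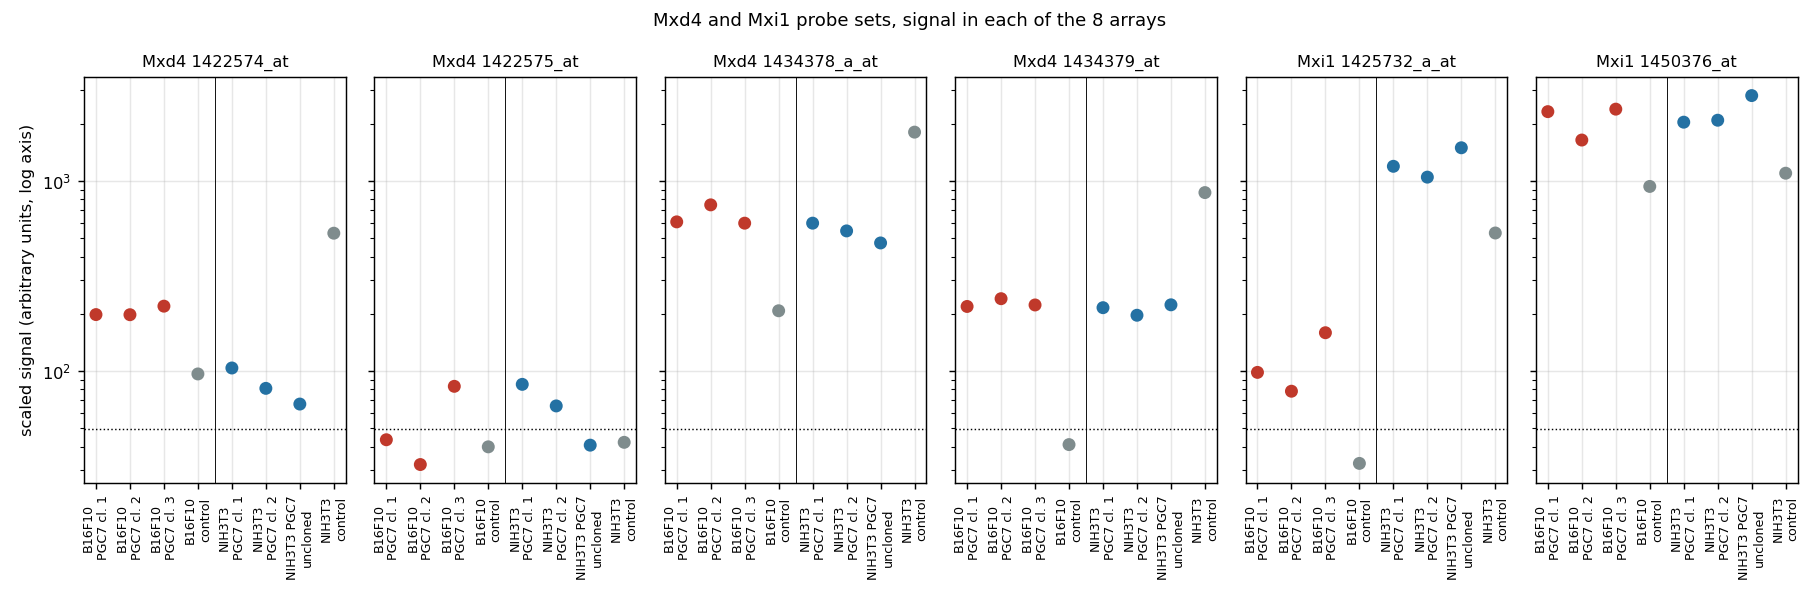
Signals of 4 Mxd4 and 2 Mxi1 probe sets in each of the 8 arrays, in arbitrary units on a log axis, with PGC7 arrays in red (B16F10) or blue (NIH3T3), controls in grey and a dotted line at the median of all signals (49.33). On 3 of 4 Mxd4 probe sets PGC7 is above the control in B16F10 and below it in NIH3T3, while on both of Mxi1 PGC7 is above the control in both lines.

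The rest of the Mxd family did not pass the test in B16F10. Mxd1 1434830_at read 229.9, 234.7 and 209.3 in B16F10 PGC7, against 166.4 (log2 0.41 ± 0.36 SE, adjusted p = 0.656, limma), and 1455104_at read 166.2, 80.26 and 167.5, against 59.44 (1.04 ± 0.48, adjusted p = 0.356). In NIH3T3 PGC7 both were below the control, at 150.9, 160.4 and 84.78, against 183.1, and at 57.61, 94.99 and 61.75, against 133.9. The 3 probe sets of Mxd3, a repressor found in dividing cells, differed by log2 -0.17 to 0.03 in B16F10 and by -0.43 to 0.14 in NIH3T3. Mxi1, the Mxd2 gene, is not among the 10 but belongs to the family and was in the partner list. Its brightest probe set, 1450376_at, read 2318, 1643 and 2389 in B16F10 PGC7, against 936.3 in the B16F10 control (log2 1.15 ± 0.25 SE, adjusted p = 0.0734, limma). In NIH3T3 it rose, at 2040, 2089 and 2816 in clone 1, clone 2 and the uncloned culture, against 1099 in the control (1.05 ± 0.25, adjusted p = 0.0278), a call lost without B16F10 clone 1 (0.0521), on the values as deposited (0.114), with no intensity trend (0.0833) and with only the NIH3T3 arrays in the fit (0.069).

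Mnt, a widely expressed repressor that pairs with Max, read 1390, 1546 and 1592 in B16F10 PGC7, against 1139 in the B16F10 control (log2 0.40 ± 0.16 SE, adjusted p = 0.291, limma). In NIH3T3 it read 1121, 1314 and 1068 in clone 1, clone 2 and the uncloned culture, against 750.3 in the control (0.63), so the 3 PGC7 arrays were above the control in both lines. The 3 tested probe sets of Mga, a large repressor with both a T-box and a Max-pairing domain, differed by -0.07 to 0.27 in B16F10 and by -0.49 to 0.02 in NIH3T3. Mlx 1418437_a_at read 676.2, 679.8 and 623.1 in NIH3T3 PGC7, against 440.4 (0.57), and 1425930_a_at read 919.4, 950.5 and 869.1, against 582.7 (0.64). In B16F10 both lay within -0.07 to -0.04.

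Over all 19 probe sets the median log2 difference was 0.03 in B16F10, beside 0.02 over all tested probe sets, and -0.12 in NIH3T3, beside -0.07. All 3 PGC7 arrays stood on 1 side of their control for 12 of 19 probe sets in B16F10 (8 above, 4 below), against 69.2% of all tested probe sets (37% above, 32.2% below). In NIH3T3 it was also 12 of 19 (5 above, 7 below), against 67.1% (28.9% above, 38.3% below). The shares lie near those of all probe sets. The B16F10 median and counts include the 2 Mycn probe sets that were under the median of all signals in all 4 B16F10 arrays. Of these, 1425923_at counts as above the control and 1425922_a_at as below it. In NIH3T3, 5 of 19 passed the threshold (2 higher, 3 lower), against 12.8% of all tested probe sets (6.47% higher, 6.32% lower), in the comparison that chose the members, and nothing is read from that count.

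**Figure D3:**
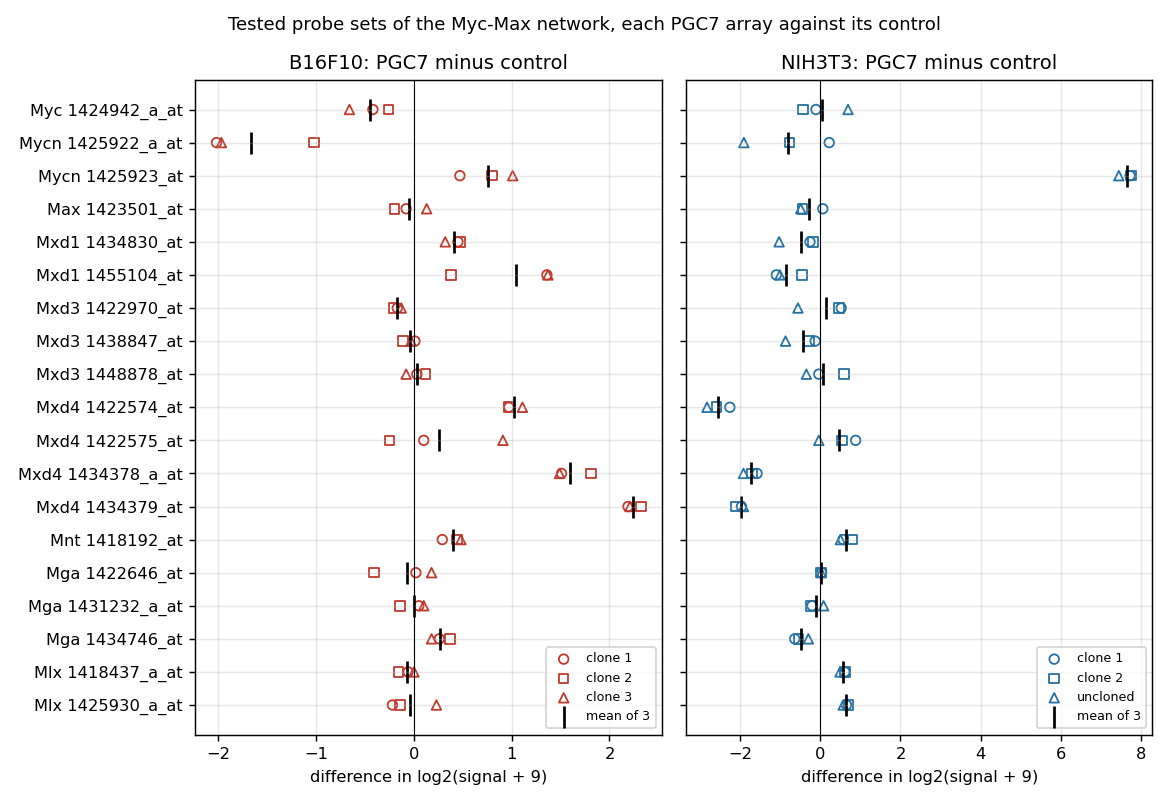
Differences in log2(signal + 9) of each PGC7 array from the control of its line for the 19 tested probe sets, B16F10 on the left and NIH3T3 on the right with its own axis range, where open symbols are clones or the uncloned culture and black bars the mean of 3. Mycn 1425923_at reaches 7.65 in NIH3T3, and Mxd4 lies right of 0 in B16F10 and left of it in NIH3T3 on 3 of 4 probe sets.

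Levels of the network differed between the lines for 10 of the 17 probe sets tested without Mycn, 6 higher and 4 lower in B16F10, against 71.5% of all tested probe sets (29.6% higher, 42% lower). The split of the network depended on the scaling, with 15 higher and 1 lower on the values as deposited, 8 and 2 with quantile normalization and 9 and 2 with scaling on the poly-A spike-in probe sets. Max averaged log2 1.21 ± 0.18 SE higher in B16F10 (adjusted p = 0.0003, limma), at 784.1 to 992.0 in B16F10, against 296.8 to 435.8 in NIH3T3, with no overlap. The 3 Mxd3 probe sets were higher by 0.89 ± 0.27, 1.33 ± 0.20 and 1.21 ± 0.22 (adjusted p = 0.0169, 0.00037 and 0.00112), also with no overlap. Mnt was higher by 0.48 ± 0.11 (adjusted p = 0.00486), and Myc by 0.60 ± 0.26, which did not pass (0.0635). Mxd4 was lower on 3 probe sets, 1422574_at, 1434378_a_at and 1434379_at (log2 -0.57, -1.40 and -2.02). The sign rests on the controls for all 3, and on the scaling for 1422574_at and 1434378_a_at. Over the PGC7 arrays alone all 3 were higher in B16F10, 1422574_at past the threshold (1.22, adjusted p = 0.00111, limma), 1434378_a_at by 0.27 (0.125) and 1434379_at by 0.10 (0.599). On the values as deposited, 1422574_at was also higher (0.83, adjusted p = 0.00234), and 1434378_a_at was at 0.13. Both lay under the median line difference of all tested probe sets on those values, 1.30. Ranges did not overlap for 5 of 17 (4 higher, 1 lower), against 62.9% of all tested probe sets. Hybridisation dates are not used here, so a batch of arrays and a line cannot be told apart.

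The textbook target genes of Myc were measured as a list of 44 Myc-induced genes, 40 on the array and 39 tested. In B16F10 PGC7, 4 fell and 0 rose (10.3%), where 1.56% of all genes were called (1.18% higher, 0.386% lower), with a list median of log2 -0.33, against 0.05 over all genes. They were Srm, which makes spermidine, at 4543, 4525 and 3984 in clones 1, 2 and 3, against 7974 in the control (-0.88 ± 0.11 SE, adjusted p = 0.014, limma), the nucleolar protein genes Gnl3 (3371, 3451 and 3300, against 5909, -0.81, adjusted p = 0.0224) and Dkc1 (5333, 5477 and 5176, against 8712, -0.71, adjusted p = 0.0468), and the ribosome-assembly gene Nop58 (6023, 5867 and 5892, against 9287, -0.65, adjusted p = 0.0485). These calls are near the threshold: leaving out B16F10 clone 1 or clone 3 left 0, clone 2 left 1, NIH3T3 clone 1 left 1 and NIH3T3 clone 2 left 2, while without the uncloned culture there were 13. The count was 0 on the values as deposited, 2 with quantile normalization and 20 with scaling on the poly-A spike-in probe sets. At an unadjusted p under 0.05 (limma, either direction) there were 20 of the 39 in the main fit. No share of all genes was taken at that threshold, so nothing is read from this count.

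In NIH3T3 PGC7, 2 of the 39 rose and 4 fell (15.4%), where 15.2% of all genes were called (7.87% higher, 7.35% lower), with a median of 0.03, against -0.04. Eif4e, the cap-binding translation factor, rose to 9095, 8881 and 9176 in clone 1, clone 2 and the uncloned culture, against 4931 in the NIH3T3 control (log2 0.87 ± 0.10 SE, adjusted p = 0.00129, limma), and Tfrc, the transferrin receptor, rose by 0.46 (adjusted p = 0.0237). The amino acid transporter gene Slc7a5 fell by 1.06 (0.00899), the cyclin gene Ccnd2 fell by 0.77 (0.00305), Dkc1 fell by 0.66 (0.014) and the mitochondrial peroxidase gene Prdx3 fell by 0.64 (0.0064). At an unadjusted p under 0.05 (limma, either direction) there were 11 of the 39, again with no share of all genes taken, so nothing is read from it. Without the uncloned culture 10 rose, and with scaling on the spike-ins 0 fell. The Tfrc call was lost without B16F10 clone 1 or 3 and without NIH3T3 clone 2. It was also lost on the values as deposited, with no intensity trend and with only the NIH3T3 arrays in the fit. Under these last settings the Dkc1 call was lost too, and that of Prdx3 with only the NIH3T3 arrays.

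Of the 18 textbook Myc-repressed genes, all measured and 14 tested, 1 rose in B16F10 PGC7 (7.14%, against 1.56% of all genes called, 1.18% higher), with a median of 0.46, against 0.05. It was Ddit3, a stress-response factor, at 1771, 1642 and 2342, against 850.2 (log2 1.15 ± 0.20 SE, adjusted p = 0.0365, limma), and the call was lost without each of the 3 B16F10 clones and without NIH3T3 clone 1 or 2, while without the uncloned culture 3 rose. The Ddit3 call was also lost on the values as deposited, with quantile normalization, with scaling on the spike-ins, with no filter and with no intensity trend. Gas1 (3.7 to 30.0), Col3a1 (7.97 to 17.5) and Thbs1 (23.51 to 39.24) lay under the median of all signals in every B16F10 array. They passed the low-signal filter only through NIH3T3, and the B16F10 share and median of the 14 include them. In NIH3T3 PGC7, 2 rose and 3 fell (35.7%; 15.2% of all genes), with a median of 0.08, against -0.04. Gadd45a, a growth-arrest gene, rose to 1181, 1088 and 1301 in NIH3T3 PGC7, against 255.2 (2.18 ± 0.20 SE, adjusted p = 0.000448), and the cell-cycle inhibitor gene Cdkn1a rose by 0.81 (adjusted p = 0.0099). Thbs1, an extracellular matrix protein, fell to 103.2, 126.6 and 212.6, against 5475 (-5.19 ± 0.43 SE, adjusted p = 0.000321), Cav1, a protein of membrane caveolae, fell by 1.41 (0.021), and the cell-cycle inhibitor gene Cdkn1b fell by 1.16 (0.00433). The Cav1 call was lost without NIH3T3 clone 1 or 2 and with no intensity trend, that of Cdkn1a on the values as deposited (0.0623) and with no intensity trend (0.0536), and that of Cdkn1b with only the NIH3T3 arrays in the fit (0.0514). The list moved both ways in NIH3T3. At an unadjusted p under 0.05 (limma, either direction) there were 5 of the 14 in B16F10 and 6 in NIH3T3. No share of all genes was taken beside them, so nothing is read from these counts. The 2 lines' changes differed by limma's interaction test, which 6.88% of all tested probe sets passed, for Cav1, Cdkn1b and Gadd45a among the repressed genes named and for Eif4e, Gnl3, Srm, Nop58, Tfrc, Slc7a5 and Ccnd2 among the induced ones. These genes were named for a call in at least 1 line on the same arrays. That choice favours passing the interaction test, so their number cannot be set against the share of all probe sets.

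Of 18 other partners and cofactors, 16 of the 17 measured were tested. None was called in B16F10 by limma, against 1.56% of all genes (4 at an unadjusted p under 0.05), and in NIH3T3 3 rose (Mxi1, the corepressor Sin3b by 0.63 and the helicase Ruvbl2 by 0.41) and 2 fell (Mycbp2 and Ep400, with log2 -0.80 each), which is 31.2%, against 15.2% of all genes. The Ruvbl2 call was lost without any 1 of the B16F10 clones and without NIH3T3 clone 1 or 2, and those of Mycbp2 and Ep400 with scaling on the spike-ins. Ruvbl2 was also not called on the values as deposited, with quantile normalization, with a pseudocount of 1, with no filter or with no intensity trend. The Sin3b call was lost on the values as deposited (adjusted p = 0.152) and with no intensity trend (0.0591). With only the NIH3T3 arrays in the fit none of the 5 was called. Of 15 regulators of Myc protein stability, 14 of which were measured and tested, 0 were called in either line by limma, against 1.56% of all genes in B16F10 and 15.2% in NIH3T3, with 2 at an unadjusted p under 0.05 in each. The 12 neural genes that go with Mycn in neuroblasts had 10 on the array and 2 above the low-signal filter, Dbh and Ptch1, neither called in either line by limma (0 in B16F10 and 1 in NIH3T3 at an unadjusted p under 0.05). In B16F10 Dbh lay under the median of all signals in every array (8.19 to 39.19) and passed the filter only through NIH3T3. The unadjusted counts in this paragraph have no share of all genes beside them, so nothing is read from them.

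**Figure D4:**
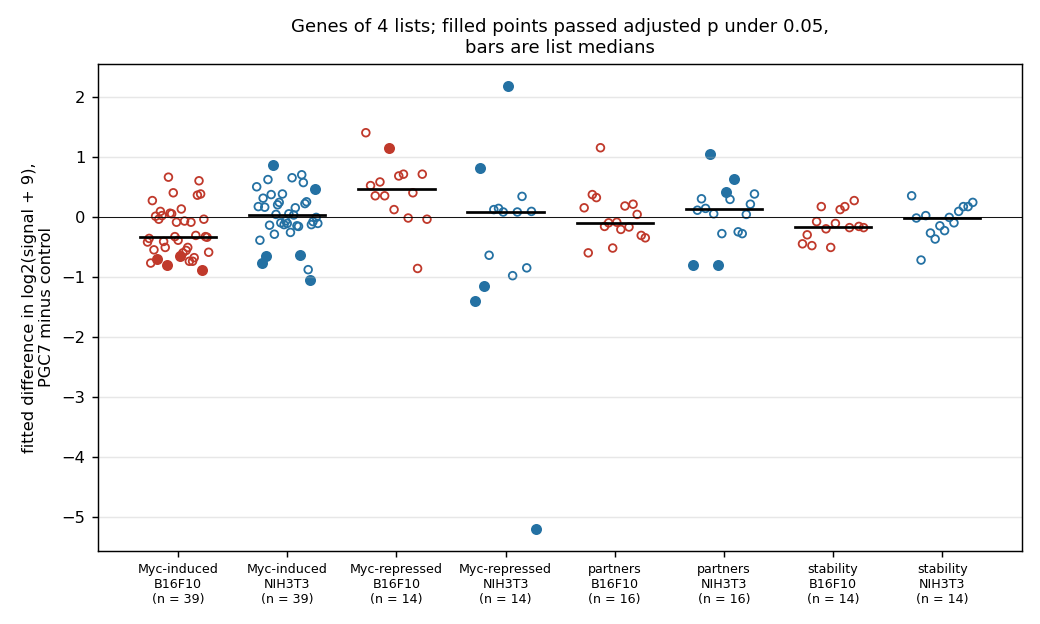
Fitted log2 differences of PGC7 from control for the genes of 4 lists in B16F10 (red) and NIH3T3 (blue), 1 point per gene by its brightest probe set, where filled points passed an adjusted p under 0.05 and bars are list medians. The Myc-induced list has its median at -0.33 in B16F10 and 0.03 in NIH3T3.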

How the data were processed

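The authors deposited a linear intensity for each probe set, from MAS5 per the submitters' processing notes, with no version or settings stated there. The 4 B16F10 columns shared a 2% trimmed mean of 500.003 as deposited, while the NIH3T3 columns had 143.446 to 188.666, so each column was scaled to a trimmed mean of 500. Signals were transformed as log2(signal + 9). Control probe sets (64) were left out, and 19801 probe sets that in neither line averaged the median log2 value (signal 49.33) were not tested, leaving 25236. Symbols came from the platform annotation (34958 probe sets with 1 symbol, 932 with several, 9211 with none), updated to GRCm38.p6. The model was fitted in limma 3.58.1 (R 4.3.3) to 4 group means of all 8 arrays, with an intensity trend in eBayes, two-sided, with Benjamini-Hochberg adjustment over all tested probe sets at 0.05, and the fit was tested on simulated data. Lists were summarised by each gene's brightest tested probe set, with 11643 genes in all. Named genes were all members, per list and line the called genes with the largest changes (at most 4 in each direction), the neighbours of Mycn and Myc, and the 6 probe sets most like 1425923_at. The members and lists were chosen with earlier results of these data known. Nothing says whether cultures of a group were grown separately beyond the clone names and the title pre cloning, so p-values measure the spread between these arrays. There were 15 alternatives for each comparison: the scaling, the pseudocount, the filter, the trend, the arrays in the fit and leaving out each PGC7 array. The number of arrays limits the precision.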

Additional observations from a re-analysis of the deposited data

Results flagged for a closer look

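On 7 probe sets of the network, every PGC7 array of B16F10 lay on the opposite side of its control from every PGC7 array of NIH3T3, as did 21.6% of all tested probe sets; these differences were not tested. The B16F10 change, with the NIH3T3 side opposite, was 2.24 for Mxd4 1434379_at, 1.60 for Mxd4 1434378_a_at, 1.02 for Mxd4 1422574_at, 1.04 for Mxd1 1455104_at, 0.41 for Mxd1 1434830_at, 0.27 for Mga 1434746_at and -0.07 for Mlx 1418437_a_at.

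For genes of the other lists, the difference between the lines' changes (B16F10 change minus NIH3T3 change, log2) was tested with limma's interaction term, which 6.88% of all tested probe sets passed. The genes below were named for a call in at least 1 line on the same arrays. That choice favours passing, so they are no independent support for a difference between the lines. Among genes named above it was 2.81 for Cav1 (0.0092), 1.5 for Cdkn1b (0.0115), 1.43 for Slc7a5 (0.0184), 1.04 for Ccnd2 (0.00768) and 0.95 for Ep400 (0.0203). It was below 0 for Gadd45a at -1.49 (0.0185), Eif4e at -1.28 (0.00282), Gnl3 at -0.84 (0.0254), Tfrc at -0.79 (0.0187), Srm at -0.75 (0.0309) and Nop58 at -0.70 (0.0473). For Thbs1 it was 5.15, but Thbs1 lay under the median of all signals in all 4 B16F10 arrays (23.51 to 39.24), so this value restates the NIH3T3 change and is given with no test.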

How the results depend on the processing

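No paired analysis was possible because the control arrays carry no clone number and equal numbers in the 2 lines name unrelated clones. The cause of each change below was not tested. In B16F10, 300 probe sets passed the threshold, against 199 with quantile normalization, 1654 on the poly-A spikes, 177 with no filter, 70 with no intensity trend, 2196 with only the line's own arrays and 59 to 1814 with 1 replicate left out; the network had 2, against 1 with no trend and 1 to 2 with 1 replicate left out. In NIH3T3, 3229 passed, against 2127 with no trend, 1151 with only the line's own arrays and 2001 to 6124 with 1 replicate left out; the network had 5, against 4 to 8. Between the lines the network had 10, against 16 on the values as deposited. On the spikes the median of all probe sets was -0.47 in B16F10 (8.9% of calls higher, against 77.7%) and 0.21 in NIH3T3 (77.3%, against 50.6%); on the values as deposited the line difference had a median of 1.30 (85.7% higher, against 41.3%), the NIH3T3 calls were 36.7% higher, and with quantile normalization the line calls were 54.2% higher (spikes 56.0%). Mxd4 1434379_at kept its B16F10 call under all 15 alternatives (log2 1.80 to 2.44, adjusted p 0.00208 to 0.0369) and 1434378_a_at under 12, the third loss being no trend (0.06). Of 21 calls named from the lists, 3 (Eif4e, Gadd45a and Thbs1 in NIH3T3) held under all 15, and none of the 5 in B16F10 did.

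Sign changes in B16F10 were all of values that had not passed the test. On the spikes they were Mxd1 1434830_at -0.08, Mxd3 1448878_at -0.49, Mxd4 1422575_at -0.18, Mnt -0.11, Mga 1431232_a_at -0.51 and Mga 1434746_at -0.24, and with quantile normalization Mga 1431232_a_at -0.07. With 1 replicate left out, the sign turned within ranges of -0.14 to 0.03 for Max, -0.02 to 0.08 for Mxd3 1448878_at, -0.07 to 0.51 for Mxd4 1422575_at, -0.19 to 0.10 for Mga 1422646_at, -0.05 to 0.07 for Mga 1431232_a_at and -0.18 to 0.04 for Mlx 1425930_a_at. In the line difference, the values as deposited turned Mxd1 1455104_at (1.21), Mxd4 1422574_at (0.83), 1422575_at (1.02) and 1434378_a_at (0.13), and Mga 1422646_at (0.69) and 1431232_a_at (1.25). Quantile normalization turned Mxd1 1455104_at (0.54), Mxd4 1422575_at (0.48) and Mga 1431232_a_at (0.06), and the spikes the same 3 (0.21, 0.13 and 0.11). Over PGC7 arrays alone, Mxd1 1455104_at was 0.83, Mxd4 1422574_at 1.22, 1434378_a_at 0.27 and 1434379_at 0.10, and Mlx 1418437_a_at -0.02 and 1425930_a_at -0.26. With 1 replicate left out, Mxd1 1455104_at was -0.20 to 0.05.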

Other observations

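Odc1, which makes putrescine and is the best-known Myc-induced gene, was chosen here after its values were seen. Its 3 probe sets went the same way within each line but differed in passing the test, and its brightest was not called. That choice favours a call, so the adjusted p-values below are no independent support. Probe set 1427364_a_at fell in B16F10 PGC7, at 831.4, 991.1 and 844.7 in clones 1, 2 and 3, against 2016 in the B16F10 control (log2 -1.18 ± 0.19 SE, adjusted p = 0.0268, limma). In NIH3T3 PGC7 it rose, at 1259, 1359 and 1657 in clone 1, clone 2 and the uncloned culture, against 634.9 in the NIH3T3 control (1.15 ± 0.19, adjusted p = 0.00638). The other two did not pass the test: 1437711_x_at differed by -0.66 (adjusted p = 0.322) in B16F10 and 0.21 (0.674) in NIH3T3, and 1438761_a_at by -0.60 (0.323) and 0.65 (0.138).

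The second Mxi1 probe set, 1425732_a_at, went the way of the first without passing the test. It read 98.32, 78.25 and 159.0 in B16F10 PGC7, against 32.63 in the B16F10 control (log2 1.48 ± 0.37 SE, adjusted p = 0.103, limma), and 1195, 1048 and 1496 in NIH3T3 PGC7, against 532.5 in the NIH3T3 control (1.20 ± 0.37, adjusted p = 0.0664).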
